A study of Homo sapiens with 2 samples.

Results

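The genes described here are 9 surface markers by which human blood progenitors are stained and sorted: CD34, CD38, THY1 (CD90), PTPRC (CD45), PROM1 (CD133), ITGA6 (CD49f), PROCR (CD201 or EPCR), CD44 and SPN (CD43). They were taken by symbol from the 32738 genes of the count matrix, of which 23268 had at least 1 read in the cells retained. All 9 were found, and 7 of them passed a minimum of 500 molecules over all cells, whereas CD38 and PROM1 did not. Cells of iPS11, a single human induced pluripotent stem cell line, had been differentiated as aggregates for 8 days and enriched for CD34 protein by magnetic selection. These cells were then placed in endothelial-to-hematopoietic transition (EHT) medium on plates that were uncoated, coated with VCAM1 at 2.5 μg/ml, coated with the notch ligand DLL4 at 15 μg/ml, or coated with DLL4 and VCAM1 together. On day 5 the nonadherent cells of 3 wells per coating were combined, marked with 1 of 4 hashtag antibodies and mixed into 1 library. The groups therefore share the cell line, the CD34 enrichment and the medium, and each coating is 1 pool of wells without replicates. No source used here ties a hashtag to a coating, so hashtags are named by their numbers, 0252 to 0255, and no coating effect is given.

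Blood arises in the embryo from hemogenic endothelial cells, which round up and detach as they become hematopoietic. CD34, a sialomucin, is carried by endothelium and by early progenitors and is lost as blood cells mature. CD43 and CD45 appear as cells acquire a blood fate, and CD38 appears as progenitors commit. The stem cell fraction of cord blood and bone marrow is therefore sorted as CD34+ CD38-, with CD90, CD49f, CD133 or CD201 added to narrow it. Those gates were built on protein, and a cell without a transcript can still carry the protein.

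The library was read as unique molecular identifiers (UMIs), each standing for 1 captured transcript molecule. Of 10836 barcodes, 8488 were called for 1 hashtag, and 7550 of these had at most 36000 UMIs, 6000 genes and 18% mitochondrial UMIs. They held 142110950 UMIs, with a median of 18318.5 per cell, and medians per hashtag lay between 17621 and 18769.5. Levels are given as UMIs of the gene per 1000000 UMIs (CPM). Because a deeper cell shows more genes, each cell was also thinned at random to 9000 UMIs, which 7197 cells (95.3%) could supply, and "+" below means at least 1 UMI in such a cell and "-" none. Ranges in brackets are exact 95% intervals, Poisson for levels and Clopper-Pearson for shares, and cover counting error only. Where no cell showed a marker, the share that 3 cells would give is named as the limit, which holds for cells with a UMI and not for cells that express the gene. With 1 library, no p-value was computed.

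CD34 (ENSG00000174059, chromosome 1, 208054317 to 208084747 on hg19) was seen in 47.8% of cells at equal depth (46.6 to 48.9%), and in 58.2% before thinning. Its level was 116 CPM (115 to 118). Single cells varied beyond counting: over thinned cells the variance was 1.88 times the mean, where counting alone gives 1. Thus fewer than 1 in 2 of the cells had a CD34 transcript at this depth, although the cultures were begun from CD34-enriched cells. The paper also saw CD34 RNA vary between cells. Its flow cytometry of nonadherent cells after EHT found CD34 protein on nearly all, in a separate experiment that compared cultures with and without EHT. The share of cells with a CD34 UMI was 28.3% with a mitochondrial limit of 10%, which left only 611 cells at equal depth. Median mitochondrial shares per hashtag were 12.9% to 13.4%, so this limit dropped most cells. Which clusters the cells left belonged to was not examined. SPN (ENSG00000197471, chromosome 16, 29674300 to 29682197), the leukocyte sialophorin that marks the first blood cells in such cultures, was seen in 83.4% of cells (82.5 to 84.3%). PTPRC (ENSG00000081237, chromosome 1, 198607587 to 198726605), the tyrosine phosphatase of nucleated blood cells, was seen in 48.3% (47.1 to 49.5%). Its isoforms, among them CD45RA, cannot be told apart in reads from the 3′ end. CD44 (ENSG00000026508, chromosome 11, 35160429 to 35253949), the hyaluronan receptor, was seen in 46.5% of cells (45.4 to 47.7%).

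The markers that narrow the stem cell gate were rarer. PROCR (ENSG00000101000, chromosome 20, 33759875 to 33804043), the protein C receptor, was seen in 10.8% of cells (10.1 to 11.5%), ITGA6 (ENSG00000091409, chromosome 2, 173292082 to 173371187), a laminin-binding integrin chain, in 6.49% (5.93 to 7.08%), and THY1 (ENSG00000154096, chromosome 11, 119286186 to 119295695), a small glycolipid-anchored protein of stem cells and fibroblasts, in 5.56% (5.04 to 6.11%). CD38 (ENSG00000004468, chromosome 4, 15779898 to 15854855), an enzyme that consumes NAD, was seen in 1.32% (1.07 to 1.61%), from 220 UMIs in the whole library, and in 3.44% (2.14 to 5.21%) under a mitochondrial limit of 10%. PROM1 (ENSG00000007062, chromosome 4, 15964699 to 16086001), which encodes prominin-1, had only 12 UMIs and was seen in 7 thinned cells. For CD38 and PROM1, the absence of a UMI therefore says little about a single cell. Over the 9 markers, 125 cells (1.74%) showed none, 2508 showed 2, 2301 showed 3 and 14 (0.195%) showed 6.

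Clusters were built without the 9 markers and named from lists of marker genes, so the names end in -like. The HSC/MPP-like cluster (2371 cells) rests on a weak call. On average its markers were 0.51 higher than in other cells on the log2 scale, but only 5 of them were both higher and seen in at least 10% of its cells. ADCYAP1, IL1RL1 and TESPA1 were among its leading genes. At a resolution of 0.30 a cluster of 2446 cells, also led by these genes, took the name mast/eosinophil-like instead. So did one of 2574 cells at 0.18, the resolution of the study. The other clusters were myeloid-like (1813 cells), neutrophil-like (1335), erythroid/megakaryocyte-like (740), stromal/mesenchymal-like (99) and mast/eosinophil-like (95), besides an unnamed cluster of 1074 cells led by SPINK2, HOPX and CD3E and another of 23 cells led by 7SK, with a median of 647 UMIs. The stromal/mesenchymal-like cells, which should lack the blood markers SPN and PTPRC, had a median of 14345 UMIs. They are no control for the whole set, since THY1 was 125 CPM and CD44 47.9 CPM in them.

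CD34 was highest in the cluster led by SPINK2 (203 CPM), the HSC/MPP-like cluster (167 CPM) and the erythroid/megakaryocyte-like cluster (167 CPM). It was lower in mast/eosinophil-like (75.4 CPM), neutrophil-like (44.05 CPM), stromal/mesenchymal-like (23.6 CPM) and myeloid-like cells (20.9 CPM). At equal depth this was a share of 74.5% in the SPINK2-led cluster against 13.9% (12.3 to 15.7%) in the myeloid-like cluster. It was 18.6% (10.3 to 29.7%) in the stromal/mesenchymal-like cluster, so the myeloid-like share was no higher than that. The stromal/mesenchymal-like share is not taken as a background, because its cells with CD34 were unlike the rest. SPN was 154 CPM in the 13 stromal/mesenchymal-like cells with CD34 and 25.3 CPM in the 57 without, and the cause was not tested. Which cluster was highest in CD34, PROCR or CD44 changed with the clustering. PTPRC followed another order, but not the reverse of CD34 in every cluster. In the SPINK2-led cluster, highest in CD34, it was 93.02 CPM, and in neutrophil-like cells 65.4 CPM. It was highest in myeloid-like cells (213 CPM, 208 to 218), which held 48.4% of its UMIs, and lowest in the stromal/mesenchymal-like cluster (29.7 CPM). The HSC/MPP-like (49.997 CPM) and erythroid/megakaryocyte-like clusters (50.1 CPM) lay near the bottom and did not differ beyond counting error. PTPRC was seen in 80.4% of myeloid-like cells, 34.04% of HSC/MPP-like cells and 17.1% of stromal/mesenchymal-like cells.

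**Figure D1:**
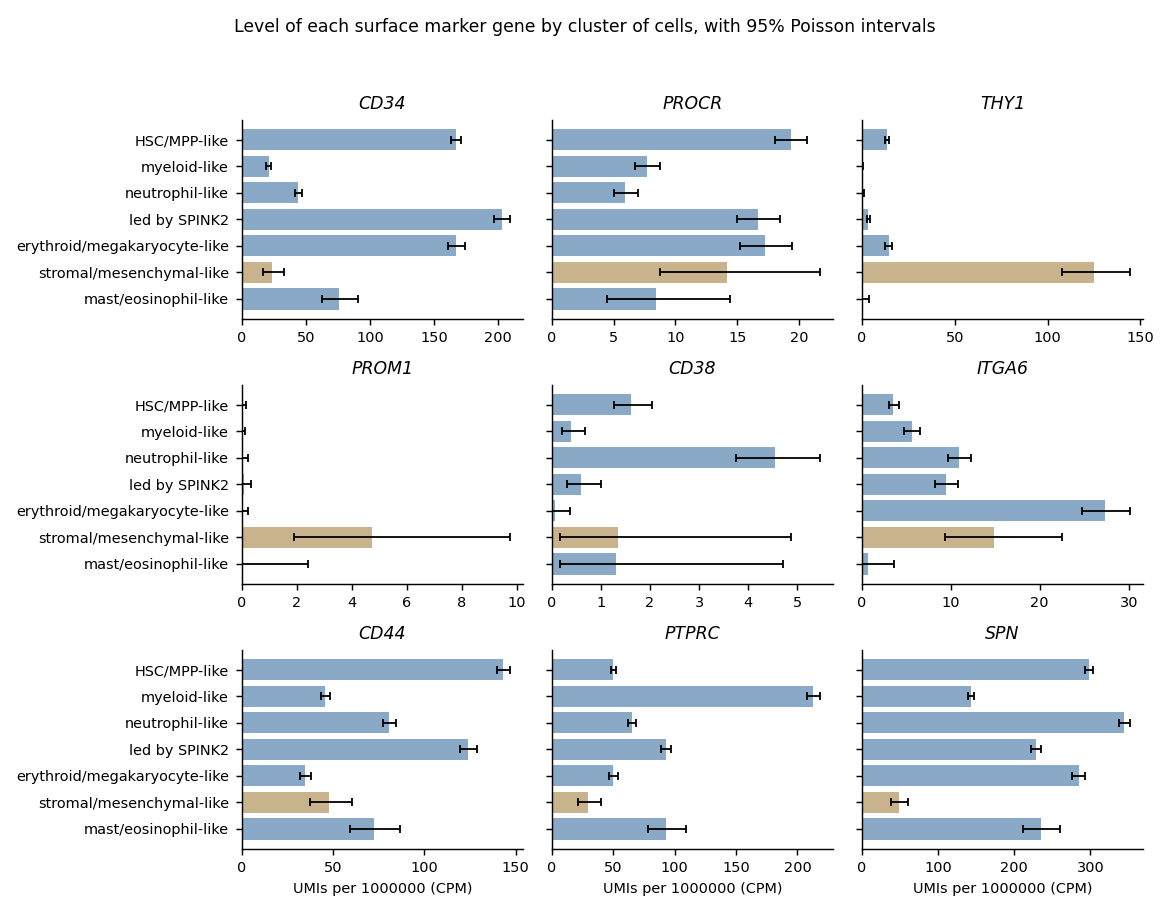
Level of each surface marker (bars, UMIs per 1000000 on linear axes that differ between genes) in 7 clusters of cells, with exact Poisson 95% intervals. CD34 lies lowest in the myeloid-like and stromal/mesenchymal-like clusters, PTPRC highest in the myeloid-like cluster, and THY1 highest in the stromal/mesenchymal-like cluster.

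SPN spread over all blood clusters, from 143 CPM in myeloid-like to 344 CPM in neutrophil-like cells, and it was seen in 30.0% of stromal/mesenchymal-like cells (48.6 CPM) against 65.3% to 92.6% in the blood clusters. CD38 was highest in neutrophil-like cells, at 4.55 CPM (3.76 to 5.45), where 116 of its 220 UMIs lay (52.7%). It was seen in 3.99% of these cells and in 0 of 731 erythroid/megakaryocyte-like cells, for a limit of 0.410%. At finer clustering CD38 reached 7.25 CPM (5.79 to 8.96) in the cluster led by ELANE and PRTN3, serine proteases of neutrophil granules. CD44 was 143 CPM in HSC/MPP-like and 124 CPM in SPINK2-led cells, against 34.6 CPM in erythroid/megakaryocyte-like and 45.7 CPM in myeloid-like cells.

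ITGA6 was highest in erythroid/megakaryocyte-like cells, at 27.4 CPM (24.8 to 30.1), against 3.55 CPM in HSC/MPP-like cells. Finer clustering, which also drew on cells outside this cluster, gave 2 clusters that took the same name. The cluster led by the fetal and embryonic globins HBG2 and HBE1 (461 cells) had 43.6 CPM of ITGA6 (39.4 to 48.1). The cluster led by SFRP5 and the Rh protein gene RHAG (449 cells) had 1.95 CPM. The top genes of the HBG2-led cluster also held PPBP, TUBB1 and THBS1, so globins alone do not describe it. Whether its ITGA6 lay in erythroid or in megakaryocyte cells was not tested. THY1 was 125 CPM (108 to 144) in the stromal/mesenchymal-like cluster, which held 185 of its 1133 UMIs (16.3%) and in which 57.1% of cells showed it. Among blood cells it was 14.4 CPM in erythroid/megakaryocyte-like and 13.7 CPM in HSC/MPP-like cells. It was below 1 CPM in myeloid-like, neutrophil-like and mast/eosinophil-like cells, the last from 1 UMI in 95 cells. The low THY1 of mast/eosinophil-like cells depended on the clustering. At finer clustering the cluster led by FST (535 cells) took that name and had 15.1 CPM of THY1. The cluster led by CLC (305 cells) took it too and had 0.337 CPM. PROM1 was mostly outside blood, with 7 of 12 UMIs in 4 stromal/mesenchymal-like cells. PROCR varied less, between 5.96 CPM in neutrophil-like and 19.4 CPM in HSC/MPP-like cells, and its level in the stromal/mesenchymal-like cluster (14.2 CPM) lay within that span.

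The finer clustering (15 clusters of at least 50 cells) placed several stem cell markers together. An unnamed cluster of 603 cells led by the cytokine gene CSF2, the growth factor gene GDF3 and CCDC173 had the highest PROCR of the 15, at 37.7 CPM (34.1 to 41.5), and the highest THY1 of any blood cluster, at 25.7 CPM (22.8 to 28.9). It also had 211 CPM of CD34, 46.0 CPM of PTPRC, 1.84 CPM of ITGA6 and 4 UMIs of CD38 in all. The SFRP5-led cluster (449 cells) was alike, with 187 CPM of CD34, 20.8 CPM of THY1 and 21.0 CPM of PROCR. CD34 itself was highest in the cluster led by GBP4, RAMP2 and HOPX, at 247 CPM. Across the 15 clusters THY1 and PROCR had r = 0.71 and CD34 and PTPRC r = -0.64 on log2(CPM + 1). These values are descriptions, since the points are clusters of 1 library, cut from the same cells.

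The promoters of CD34, PTPRC and PROCR are shown because PTPRC was lower and PROCR higher in cells with CD34, as given further on. They are reference sequence, the 250 bases upstream of the start, 5′ to 3′ on the gene's strand (RefSeq, GRCh38.p14, whose coordinates are not those of hg19 above). Capitals mark AGGAAG, a core of ETS family sites, read on either strand. The letters AGATAA, of the GATA factors, were searched as well. So were TGTGGT, of the RUNX factors, and neither had a match in these 3 windows. The CD34 promoter lies at chr1:207911126-207911375 (minus strand), the PTPRC promoter at chr1:198638790-198639039 (plus strand) and the PROCR promoter at chr20:35171822-35172071 (plus strand).
CD34: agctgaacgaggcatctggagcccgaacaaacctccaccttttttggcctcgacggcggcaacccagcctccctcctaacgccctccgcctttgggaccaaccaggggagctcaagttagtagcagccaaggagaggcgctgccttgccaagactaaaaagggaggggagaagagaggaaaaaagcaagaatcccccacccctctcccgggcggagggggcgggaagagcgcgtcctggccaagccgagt
PTPRC: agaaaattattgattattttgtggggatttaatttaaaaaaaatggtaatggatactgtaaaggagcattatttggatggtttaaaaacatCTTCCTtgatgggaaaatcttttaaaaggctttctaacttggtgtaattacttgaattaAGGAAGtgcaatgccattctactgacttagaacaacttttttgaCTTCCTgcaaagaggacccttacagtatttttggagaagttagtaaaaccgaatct
PROCR: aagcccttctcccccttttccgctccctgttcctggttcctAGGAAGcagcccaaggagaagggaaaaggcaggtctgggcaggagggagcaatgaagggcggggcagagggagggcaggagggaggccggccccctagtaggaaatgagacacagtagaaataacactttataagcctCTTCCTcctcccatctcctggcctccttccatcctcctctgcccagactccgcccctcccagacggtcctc
The PTPRC window is rich in A and T (31.2% G or C, against a median of 58% over all promoters) and holds 3 AGGAAG matches, 159, 100 and 56 bases before the start. The PROCR window holds 2, and the CD34 window none of the 3 motifs. Of 35116 promoter windows of this length, 28.7% held AGGAAG, 9.17% AGATAA and 10.98% TGTGGT, so a match is common. A match in letters is a description of the reference and says nothing of binding in these cells.

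The combinations used for sorting were then counted per cell. CD34+ CD38- cells were 47.4% of all cells, nearly every CD34+ cell, because CD38 was so sparse. CD34+ CD38+ cells numbered 27 (0.375%, 0.247 to 0.545%), which was 0.595 times the number expected if the markers fell independently and 0.717 times that expected within clusters. CD34- CD38+ cells numbered 68 (0.945%), 1.37 times the independent number. With so few cells these factors were unstable. CD34+ CD38+ cells were 0.842 times the independent number (0.599 to 1.15) in a second random thinning, 0.676 times (0.370 to 1.13) at 5000 UMIs and 1.01 times under a mitochondrial limit of 10%, where CD34- CD38+ cells were 0.996 times. CD34+ SPN+ cells were 42.1% and CD34+ SPN- cells 5.70% (5.17 to 6.26%), and CD34- SPN+ cells 41.4%. CD34+ SPN- cells were 0.719 times as many as independent markers give and 0.937 times within clusters.

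CD34+ PTPRC+ cells were 18.8% (17.9 to 19.7%), 0.815 times the independent number, and 0.945 times within clusters. The shortfall was thus smaller once the clusters were allowed for. CD34+ SPN+ PTPRC+ cells, the gate for blood-committed progenitors, were 16.2% (15.4 to 17.1%). They were 31.5% of the SPINK2-led cluster, 23.5% of erythroid/megakaryocyte-like, 18.8% of HSC/MPP-like and 7.21% of myeloid-like cells. Of the stromal/mesenchymal-like cells 4 of 70 met the gate (5.71%, 1.58 to 13.99%), an interval that holds the myeloid-like share.

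CD34+ CD38- THY1+ cells, the stem cell gate of cord blood, numbered 252 (3.50%, 3.09 to 3.95%), 1.34 times the independent number and 1.02 times within clusters. They were 7.12% of HSC/MPP-like, 7.25% of erythroid/megakaryocyte-like, 2.10% of SPINK2-led and 0.118% of myeloid-like cells. Outside the blood clusters, 7 of 70 stromal/mesenchymal-like cells (10.0%, 4.12 to 19.5%) met the gate as well. Those 7 were 2.78% of all cells in the gate. Of the 13 CD34+ stromal/mesenchymal-like cells, 11 were SPN+, and whether the gate reached beyond blood was not tested. At 5000 UMIs per cell the gate held 1.51% of all cells, so its size is bound to depth. With PTPRC+ added, 85 cells remained (1.18%, 0.944 to 1.46%), with 59 of them in the HSC/MPP-like cluster and 0 of 70 stromal/mesenchymal-like cells, for a limit of 4.29%. With ITGA6+ added as well, 4 cells remained. Without CD45RA, the transcript form of the flow panel of the study (PTPRC+ CD34+ CD38- CD7- MME- THY1+ ITGA6+) held 3 cells (0.0417%), and its THY1- ITGA6- counterpart held 908 (12.6%, 11.9 to 13.4%). On protein, the paper's flow panel found distinct stem cell and multipotent progenitor populations in every coating. The paper cautions that this panel was untested by function in cells from pluripotent stem cells. Its authors believe single-cell RNA to be more useful for classing them. CD34+ PROM1+ cells numbered 4.

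Of the pairs found in at least 5 cells, THY1 and PROCR exceeded the independent number over all cells by most. They were together in 83 cells, 1.92 times that number and 1.45 times within clusters, where CD38 and ITGA6, together in 10 cells, were at 1.61 times. PROCR was seen in 20.8% of THY1+ against 10.2% of THY1- cells. CD34+ CD38- THY1+ PROCR+ cells numbered 61 (0.848%, 0.649 to 1.09%) where independent markers give 0.283%, a factor of 3.00, or 1.71 within clusters. The CSF2-led cluster held 30 of these 61 (49.2%) and 82 of the 252 CD34+ CD38- THY1+ cells (32.5%), which made up 13.7% of it (11.1 to 16.8%). ITGA6 did not join this group. ITGA6 and PROCR were together in 34 cells, 0.674 times the independent number and 0.692 times within clusters, and THY1 and ITGA6 in 24 cells, 0.925 times. CD38 and PROCR met in 3 cells where independent markers give 10.3, a factor of 0.293. That pair is below the limit of 5 cells, and its factor was not recomputed in another thinning.

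**Figure D2:**
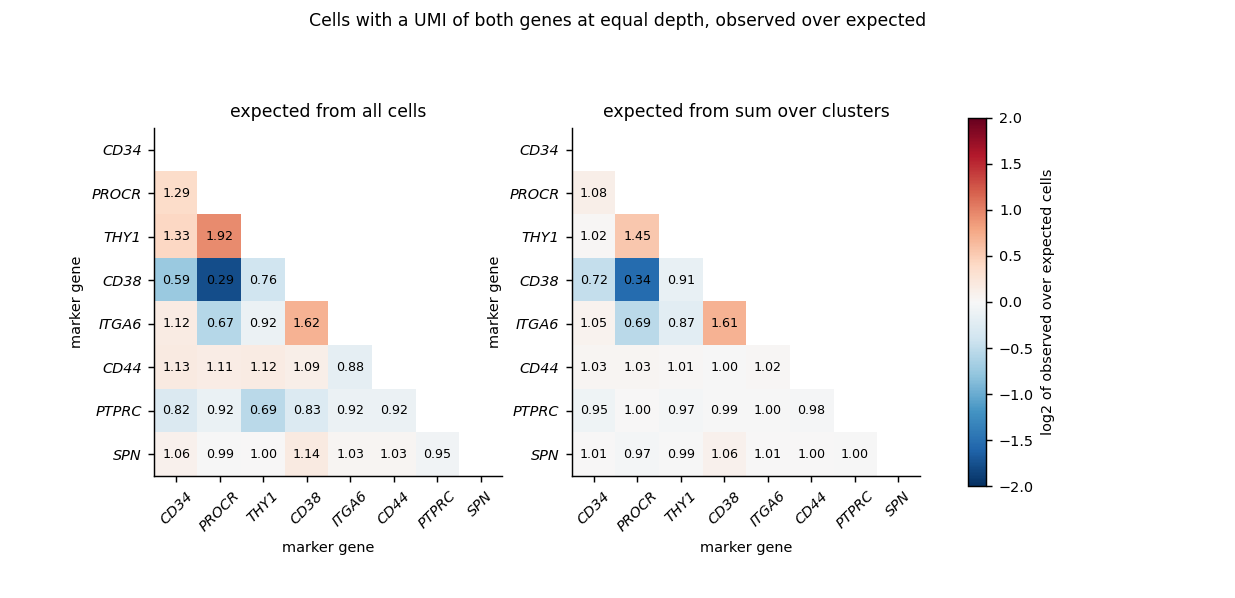
Observed over expected number of cells with both markers of a pair at 9000 UMIs per cell (printed in each square and colored as log2), expected from all cells on the left and summed over clusters on the right. THY1 with PROCR lies above 1 in both (1.92 and 1.45 times), and ITGA6 with PROCR (0.674 and 0.692 times) lies below. CD38 with PROCR (0.293 and 0.342 times) also lies below, but rests on 3 cells.

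Cells with CD34 were then compared with cells without it, 3438 against 3759 at equal depth. PTPRC was 66.8 CPM with CD34 and 133 CPM without, a ratio of 0.502 (0.476 to 0.529). Its level went down in steps with the number of CD34 UMIs, from 133 CPM at 0 to 75.0 at 1, 63.4 at 2 and 57.9 at 3 or more. The ratio lay between 0.436 and 0.578 in each of the 4 hashtags. Within clusters it was nearer to 1, at 0.677 in HSC/MPP-like, 0.726 in neutrophil-like and 0.871 in myeloid-like cells, and in SPINK2-led (0.889, 0.764 to 1.04) and erythroid/megakaryocyte-like cells (0.894, 0.704 to 1.14) the interval included 1. In all 5 of these clusters the ratio was nearer to 1 than over all cells. With a mitochondrial limit of 10% it was 0.762 in the 611 cells left at equal depth.

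PROCR was 18.1 CPM with CD34 and 10.4 CPM without, a ratio of 1.73 (1.52 to 1.99). It went up from 10.4 CPM at 0 CD34 UMIs to 16.9 at 1, 17.7 at 2 and 20.3 at 3 or more, and the ratio was between 1.70 and 1.72 in the 4 hashtags. Within clusters it was 1.40 in HSC/MPP-like cells and 0.860 in neutrophil-like cells. Of the 8635 genes with at least 500 UMIs after thinning, 3.61% were at least 1.5 times higher with CD34 and 7.13% at least 1.5 times lower. Of the 5 surface markers compared there, PROCR was the 1 above and PTPRC the 1 below these limits, beside a median ratio of 1.003 over all those genes. Under the mitochondrial limit of 10% PROCR was at 1.46 (0.832 to 2.49), so neither marker passed its limit there.

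CD44 (1.36, 1.29 to 1.43), ITGA6 (1.23, 1.04 to 1.46) and SPN (1.12, 1.08 to 1.15) were slightly higher with CD34, but not in every cluster. For SPN the direction turned under the mitochondrial limit of 10% (0.769, 0.687 to 0.860). CD44 was lower with CD34 in HSC/MPP-like cells (0.761, 0.707 to 0.819) and higher in SPINK2-led (1.67) and erythroid/megakaryocyte-like cells (1.89). ITGA6 was likewise split, with 1.84 in HSC/MPP-like, 1.82 in neutrophil-like and 0.531 (0.397 to 0.712) in erythroid/megakaryocyte-like cells. THY1, just under the minimum with 294 UMIs with CD34 and 202 without, had a ratio of 1.59 (1.33 to 1.91) over all cells but 0.922 (0.721 to 1.18) in HSC/MPP-like cells, and over hashtags 0252 to 0255 it was 2.09, 2.85, 1.16 and 0.888. With the mitochondrial limit at 10% it was 0.686, so no direction is given for THY1. CD38 had 30 UMIs with CD34 and 73 without, a ratio of 0.449 (0.283 to 0.696), but a second random thinning gave 0.715 (0.471 to 1.08) and the mitochondrial limit of 10% gave 1.01. Cells with CD34 had been deeper before thinning, with a median of 19886 against 17495 UMIs, and its part in these ratios was not tested.

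**Figure D3:**
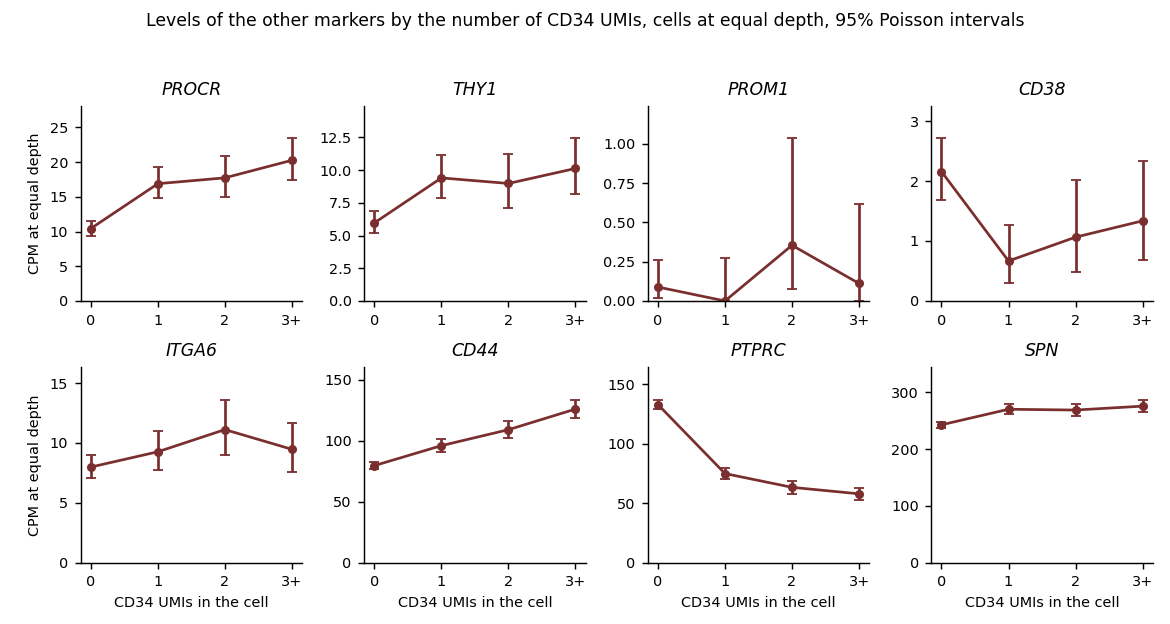
Level of each other surface marker (UMIs per 1000000, exact Poisson 95% intervals) in cells with 0, 1, 2 and 3 or more CD34 UMIs after thinning to 9000 UMIs. PTPRC goes from 133 to 57.9, PROCR from 10.4 to 20.3 and CD44 from 79.6 to 126.

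The 10 genes with the highest ratio in CD34+ cells were GPR56 (4.11), SFRP5 (4.06), CCDC173 (4.05), GAD1 (3.90), STXBP6, DLGAP3, HOPX, C2orf88, MEX3B and GYPB (3.13). GPR56 is an adhesion receptor of stem cells and HOPX a homeodomain protein, and SFRP5 and CCDC173 also led the clusters rich in THY1 and PROCR. The 10 lowest included genes of mature cells. They were the neutrophil genes DEFA4 (0.0630) and S100A8 (0.0712), the complement genes C1QA, C1QB and C1QC (0.0720 to 0.0794), AGR2, MNDA, CHI3L1, CCL3 and SPP1 (0.0973). From 25 other surface genes of progenitor panels, 24 were in the matrix and 10 passed the minimum. Of these 10, ESAM (2.65), an endothelial and stem cell adhesion molecule, and ITGA2B (2.23), the platelet integrin chain CD41, were at least 2 times higher with CD34. CD9 (0.337), a tetraspanin, and CSF2RA (0.276), the GM-CSF receptor chain, were at least 2 times lower. Of the 8635 genes, 1.02% were at least 2 times higher and 3.4% at least 2 times lower. The median ratio of the 10 was 1.06.

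By hashtag, CD34 was 139 CPM in 0252, 105 in 0253, 119 in 0254 and 98.5 in 0255. In shares at equal depth this was 54.2%, 43.8%, 48.5% and 43.3%. Hashtag 0252 thus stood highest and 0255 lowest, a ratio of 1.41 (1.34 to 1.47), where the median over 10521 genes of the highest to the lowest hashtag was 1.14. Hashtags also differed in which cells they held: 0252 and 0253 had 25.1% and 27.8% neutrophil-like cells, and 0254 and 0255 had 7.85% and 6.30%. Within clusters, 0252 was above 0255 by 1.67 times (1.56 to 1.79) in HSC/MPP-like, 1.67 times (1.54 to 1.81) in SPINK2-led, 2.71 times (2.15 to 3.45) in myeloid-like and 1.38 times (1.17 to 1.63) in erythroid/megakaryocyte-like cells, but not in neutrophil-like cells (0.951, 0.768 to 1.19). With the clusters weighted alike in each hashtag, the ratio was 1.57, but these clusters mix unlike cells. At finer clustering a cluster led by FST, with 48.7 CPM of CD34, was 1.22% of 0252 and 13.7% of 0255. In 0252 against 0255, CD34 was 188 against 187 CPM in the SFRP5-led and 230 against 197 CPM in the CSF2-led cluster. In the ELANE-led cluster it was 32.1 CPM in both. It was 211 against 156 CPM in the cluster led by IGLL1 and 122 against 30.5 CPM in that led by FST. The CD3E-led cluster had 204 against 95.9 CPM, the HBG2-led cluster 172 against 91.3 CPM and the GBP4-led cluster 284 against 226 CPM. Among the finer clusters, only the stromal/mesenchymal-like cluster had less CD34 in 0252 than in 0255, and there the intervals overlapped. Under the mitochondrial limit of 10%, which left 736 cells, the ratio of 0252 to 0255 over all cells turned to 0.822. Whether 0252 stood above 0255 in CD34 thus depended on that limit, and the order of the other hashtags was not recomputed under it.

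**Figure D4:**
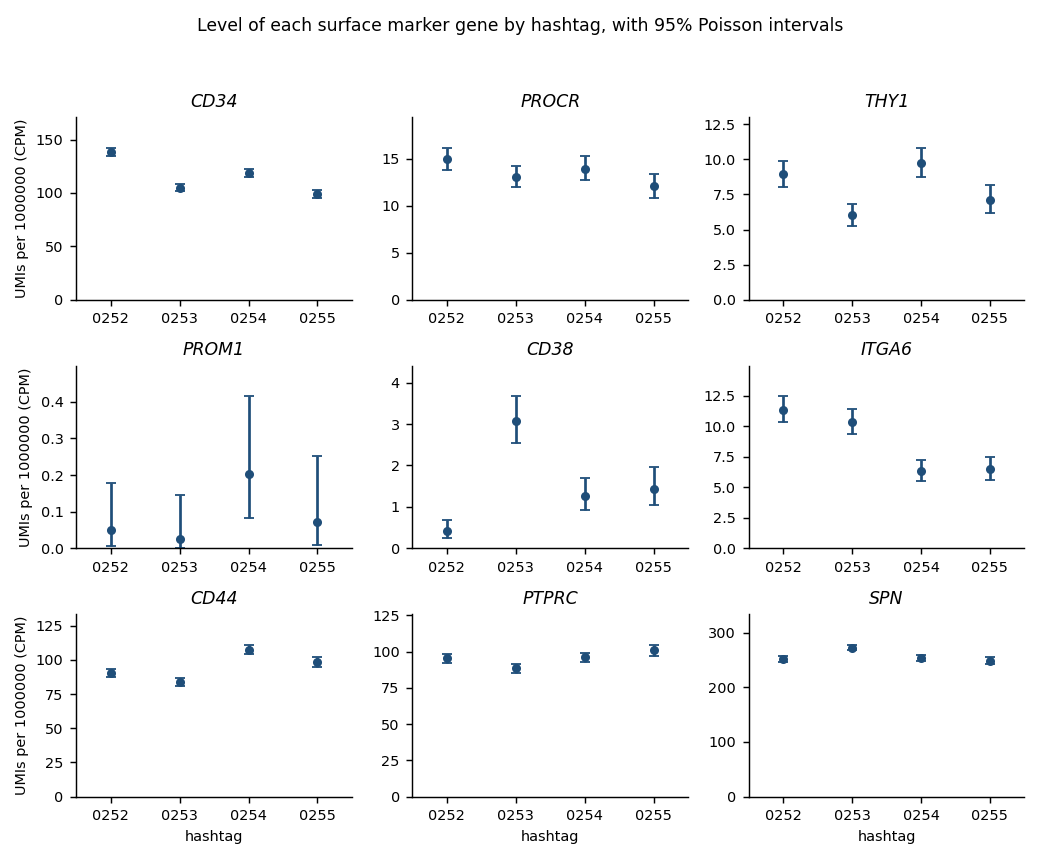
Level of each surface marker (UMIs per 1000000) in the 4 hashtags, 0252 to 0255, with exact Poisson 95% intervals. CD34 is highest in 0252, CD38 in 0253, ITGA6 higher in 0252 and 0253 than in 0254 and 0255, and SPN within 249 to 273 in all.

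Of the 8 markers other than PROM1, CD38 differed most. It had 17 UMIs in 0252, 118 in 0253, 44 in 0254 and 41 in 0255, or 0.421, 3.07, 1.27 and 1.44 CPM. The ratio of 0253 to 0252, both rich in neutrophil-like cells, was 7.29 (4.37 to 12.9). In neutrophil-like cells alone the levels were 1.54, 8.08, 2.65 and 3.30 CPM, and 0253 was 5.25 times (3.01 to 9.78) above 0252. In HSC/MPP-like cells, 0252 had 1 UMI against 19 in 0253, 26 in 0254 and 28 in 0255. A low CD38 in 0252 was thus seen in both clusters.

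ITGA6 was 11.4 and 10.3 CPM in 0252 and 0253 against 6.31 and 6.49 CPM in 0254 and 0255, a ratio of 1.80 from highest to lowest that became 1.33 with clusters weighted alike. Erythroid/megakaryocyte-like cells, in which it was highest, were 14.2% and 13.9% of the first pair and 5.31% and 3.82% of the second. Within these cells it was 30.6, 28.4, 15.5 and 26.5 CPM in 0252 to 0255. There 0252 was 1.98 times (1.36 to 2.95) above 0254, but the interval of 0255 (18.1 to 37.4) overlapped those of all the others. THY1 was 8.93, 6.01, 9.74 and 7.12 CPM, a ratio of 1.62. Without the stromal/mesenchymal-like and 7SK-led cells the ratio was 1.36 (1.13 to 1.63). With clusters weighted alike it was 1.27 for the same pair of hashtags, and the order changed, with 0252 highest and 0255 lowest. Of the 338 THY1 UMIs in 0254, 71 lay in 18 stromal/mesenchymal-like cells. Stromal/mesenchymal-like cells were 0.515%, 0.551%, 0.975% and 3.76% of the 4 hashtags. THY1 and ITGA6 were 2 of the 7 markers that passed the minimum with a ratio of at least 1.5, a limit that 8.32% of all 10521 genes reached. Under the mitochondrial limit of 10% the ratios of the same pairs of hashtags were 4.82 for THY1 and 1.02 for ITGA6.

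PROCR was 14.9, 13.1, 13.97 and 12.1 CPM, a ratio of 1.24. Under the mitochondrial limit of 10% the ratio was 0.832 (0.523 to 1.33), an interval that includes 1 and 1.24. In HSC/MPP-like cells 0252 was 1.68 times (1.37 to 2.07) above 0255. CD44 was 90.5, 84.1, 108 and 98.3 CPM, a ratio of 1.28 that became 1.03 for the same pair with clusters weighted alike. PTPRC (88.5 to 101 CPM) and SPN (249 to 273 CPM) differed least, by ratios of 1.14 and 1.10, although SPN was at 1.59 for the same pair under the mitochondrial limit of 10%. PROM1 had 2, 1, 7 and 2 UMIs, too few to rank the hashtags.

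The sorting combinations differed between hashtags as well. Each one given here includes CD34+, whose own share was 54.2%, 43.8%, 48.5% and 43.3% in hashtags 0252 to 0255. The shares below were not weighted for clusters or recomputed by hashtag under the mitochondrial limit of 10%. CD34+ PTPRC+ cells were 24.2%, 15.9%, 17.9% and 16.3% of hashtags 0252 to 0255, and CD34+ SPN- cells 8.40%, 4.04%, 5.06% and 4.91%. CD34+ CD38- THY1+ cells were 4.40%, 3.27%, 3.88% and 2.12%. The interval of 0255 (1.44 to 2.99%) lay below those of 0252 (3.55 to 5.38%) and 0254 (3.03 to 4.88%) but overlapped that of 0253. Those of 0252, 0253 and 0254 overlapped. CD34+ CD38- THY1+ PTPRC+ cells were 1.78%, 1.19%, 1.07% and 0.478%. CD34+ PROCR+ cells were 7.91%, 5.96%, 7.25% and 4.98%. CD34+ CD38- THY1+ PROCR+ cells were 0.939%, 0.881%, 0.956% and 0.546%, each with an interval that overlapped the others. CD34+ CD38+ cells numbered 1, 15, 8 and 3. The CSF2-led cluster was 9.46%, 7.11%, 9.80% and 4.96% of the hashtags, and within it PROCR was 39.8, 39.0, 35.5 and 34.02 CPM and THY1 31.9, 20.8, 26.0 and 16.6 CPM. The intervals of its PROCR level overlapped over the 4 hashtags. For THY1 the interval of 0252 (26.5 to 38.1) lay above that of 0255 (10.4 to 25.2), and those of all other pairs of hashtags overlapped. The cluster's share of cells was lowest in 0255.

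**Figure D5:**
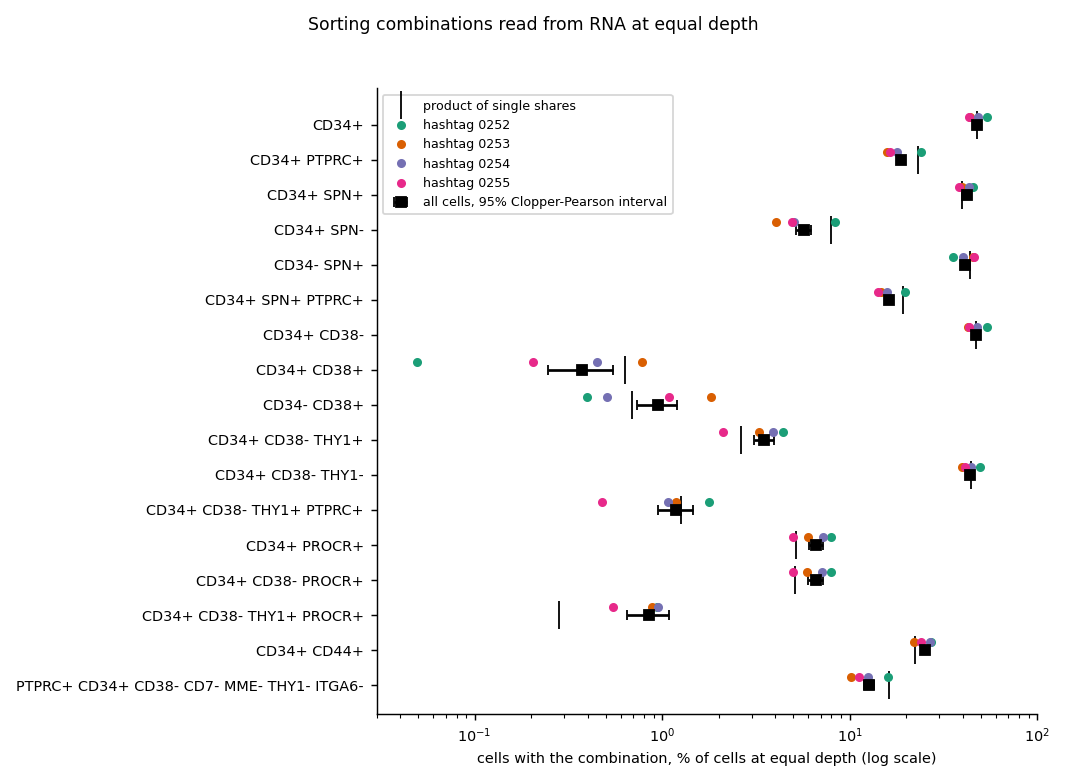
Share of cells (%, logarithmic axis) with each sorting combination at 9000 UMIs per cell, as black squares for all cells with exact Clopper-Pearson 95% intervals, colored points for the hashtags and a vertical line for the product of the single shares. CD34+ CD38- THY1+ cells range from 2.12% in 0255 to 4.40% in 0252, and CD34+ CD38- THY1+ PROCR+ cells (0.848%) lie to the right of the 0.283% that independent markers give.

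For each marker that passed the minimum, the 3 genes with the most similar pattern over the 15 finer clusters were found by r on log2(CPM + 1). For CD34 these were SF3B14 (0.95), CDKN2AIPNL (0.94) and TXN (0.94), and for PTPRC they were OSBPL11 (0.96), RNASE6 (0.95) and SCAF11 (0.94). For THY1 they were PCGF2 (0.96), TPM1 (0.96) and NCKAP1 (0.95), a pattern in which the stromal/mesenchymal-like cluster is 1 of the 15 points. For SPN they were PIM1 (0.95), ZNF141 (0.93) and PPHLN1 (0.93), and for PROCR LY6E (0.88), CECR2 (0.85) and BICD1 (0.84). CD44 was nearest to TOP3B (0.86), STXBP4 (0.86) and ZNF354A (0.85). ITGA6 had the least similar neighbors, CTSA (0.79), STOM (0.76) and JMJD6 (0.75).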

How the data were processed

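Single-cell RNA was measured in 1 library that pooled 4 hashtag-labeled cultures. The values are raw UMI counts per gene and hashtag as the authors deposited them, made with Cell Ranger 6.0.1 and the build hg19 per the submitters' processing notes, with each barcode's hashtag call in a separate file. The limits of 36000 UMIs, 6000 genes and 18% mitochondrial UMIs follow the study. The 9 markers, the gene lists and the tests were chosen with earlier results of these data known.

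Cells were thinned without replacement to 9000 UMIs (seed fixed), and 353 cells below that depth were dropped. Expected numbers of a combination are the product of the single shares, over all cells or summed within clusters. Clustering used scanpy 1.11.5 and leidenalg 0.10.2 with the 9 markers left out of the variable genes, S and G2/M scores regressed out, 40 principal components and 15 neighbors. The resolution was raised from 0.18 in steps of 0.02 to 0.32, where each of 4 blood classes had a cluster, and a finer run used 1.0. A cluster took the name of the list with the highest mean log2 fold if at least 3 markers were higher than in other cells. Each such marker had to be seen in at least 10% of the cluster's cells. A name was dropped if another list had more genes among the cluster's top 10 genes. It was also dropped for a shallow cluster with no gene of its list there. The mean log2 fold had to be above 0, a limit chosen after seeing the data that gave the HSC/MPP-like name. No cluster of the main run took the endothelial or lymphoid name. The SPINK2-led cluster was nearest to the endothelial list (mean log2 fold 1.22, 3 markers) but held no gene of it in its top 10. It held SPINK2 and HOXA9 of the HSC/MPP list and CD3E and CD3D of the lymphoid list there, so it stayed unnamed. Scrublet, at an expected rate of 6%, called 73 cells (0.967%) doublets, which were kept, and barcodes called doublets by hashtag were left out.

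Named genes were the 9 markers, other surface genes at least 2 times apart between cells with and without CD34, the 10 highest and lowest genes of that comparison and the 3 nearest genes per marker. Genes that lead clusters were named after their values were seen. Ratios between 2 groups of cells carry exact intervals for the ratio of 2 Poisson rates. Promoter sequences came from RefSeq for 7 of the 9 markers, without THY1 and SPN. The steps were tested on simulated data. Python 3.11.15, numpy 2.4.6, scipy 1.17.1, pandas 2.3.3, anndata 0.12.19, igraph 0.11.9 and matplotlib 3.10.9 were used. Alternatives were thinning to 5000 UMIs or none, another seed, a positive call at 2 UMIs, other limits on cells, hashtag calls and doublets, equal weight per cell, and other clusterings. Leaving out stromal/mesenchymal-like and 7SK-led cells was added after seeing the data.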

Additional observations from a re-analysis of the deposited data

Results flagged for a closer look

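The markers were also read in barcodes that entered no comparison, those called negative for every hashtag and those called doublets. Each value below was above what a count of 3 would give there, with no control to compare. In 809 negative barcodes within the same limits, with a median of 15601 UMIs, CD34 was 179 CPM, 1.54 times its level in the cells with 1 hashtag, CD44 was 136 CPM (1.44 times) and PTPRC was 59.9 CPM (0.631 times). In the same barcodes CD38 was 1.33 CPM, THY1 11.05 CPM, ITGA6 7.13 CPM, PROCR 18.3 CPM and SPN 313 CPM. The negative barcodes were thus richer in CD34 and poorer in PTPRC than the cells analysed, and how leaving them out bears on the shares above was not tested. In 834 barcodes called doublets, with a median of 22004 UMIs, CD34 was 111 CPM, CD38 2.06 CPM, THY1 9.38 CPM, PTPRC 92.1 CPM, ITGA6 8.35 CPM, PROCR 14.7 CPM, CD44 91.4 CPM and SPN 244 CPM, near the levels in the cells with 1 hashtag.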

How the results depend on the processing

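The share of CD34+ cells was 34.5% at 5000 UMIs, 28.3% with a mitochondrial limit of 10% (736 cells, 611 at equal depth), 26.9% if 2 UMIs were needed and 58.2% without thinning. The share of CD34+ CD38- THY1+ cells was 1.51%, 2.13%, 0.347% and 7.93% in the same settings, and that of CD34+ CD38- THY1- cells 32.8%, 25.2%, 26.5% and 49.0%. CD34+ CD38- THY1+ cells were 4.004% without limits on counts or genes. At 5000 UMIs, CD34+ CD38- THY1+ PROCR+ cells were 2.20 times the independent number, and the PTPRC ratio with over without CD34 was 0.563. Under the 10% limit the PTPRC ratio was 0.762. With near hashtag calls removed the CD34 ratio of hashtag 0252 to 0255 was 1.49. PTPRC in myeloid-like cells was 205 CPM with the markers left in the clustering, 226 without cell cycle regression, 219 with classes by marker score and 275 without Scrublet doublets. Each of these settings drew the clusters anew, the clustered ones at resolutions of 0.18, 0.38 and 0.30, so they hold other cells as well. Without Scrublet doublets the myeloid-like cluster had 981 cells in place of 1813. Directions turned under the 10% limit for CD34+ CD38+ cells (1.01 times the independent number) and CD34- CD38+ cells (0.996 times), for the ratios of CD38 (1.01), THY1 (0.686) and SPN (0.769) with over without CD34, and for the hashtag ratios of CD34 (0.822) and PROCR (0.832). It also turned, without limits on counts or genes, for 1 gate of few cells: PTPRC+ CD34+ CD38- CD7- MME- THY1+ ITGA6+ cells were 1.55 times the independent number. With the limits the factor was 0.633, and its interval (0.131 to 1.85) included 1. The causes were not tested. Of the values recomputed, 445 stayed within the counting interval of the value reported, 250 moved beyond it and 8 turned. A value turned if its point estimate crossed 1 and it had a direction before, by its interval or by a factor past 1.5. The new interval did not have to exclude 1, so values such as 1.01 and 0.996 show no opposite direction. In the 6 settings that gave the classes, CD38 and SPN were highest in neutrophil-like, PTPRC in myeloid-like, ITGA6 in erythroid/megakaryocyte-like and THY1 in stromal/mesenchymal-like cells, and the order changed for CD34, PROCR and CD44. No paired analysis was possible because the library has no replicates.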
